A study of Mus musculus with 4 samples.

Results

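CpG-poor promoter regions were the accessible regions that lay at a gene's start but carried few CpG dinucleotides. A region was taken as a member when its midpoint was at most 1 kb from where a protein-coding transcript begins and its CpG observed/expected ratio, the number of CpGs divided by the number expected from its C and G content, was below 0.4. The rule used position and genome sequence alone, and 6525 of the 255864 regions in the count table met it (2.55%), which were 28.6% of the 22829 promoter regions. By their nearest start they belonged to 5020 genes, of which 3894 had 1 member and 1126 had 2 or more, with 9 as the most. Members of 1 gene share a locus and are not independent of each other, and 162 members (2.48%) had starts of more than 1 gene within reach.

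Accessibility was measured by ATAC-seq, in which a transposase inserts adapters into open chromatin, in primary osteoblasts, the bone-forming cells, from calvaria of 3-day-old C57BL/6 mice. The WT group was wild type, and the TCKO group was Prx1-Cre together with homozygous floxed alleles of *Tet1*, *Tet2* and *Tet3* (fl/fl at each), so that all 3 TET dioxygenases, which oxidise 5-methylcytosine, were deleted. Prx1-Cre acts in mesenchymal cells, so any other cell type in a culture keeps its *Tet* genes. The labels list 4 samples, 2 per genotype, while 1 protocol text speaks of 3 repeats, and the deposited table has 1 merged column per genotype. No difference below therefore has a replicate check, no p-value was computed, and each value compares 1 merged WT library with 1 merged TCKO library. In bulk cells of this kind, fewer cells of a type and less open chromatin per cell cannot be told apart.

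Most promoters of broadly used genes lie in CpG islands, which stay largely unmethylated whether or not the gene is active. CpG-poor promoters are the other class: they often belong to genes used in 1 tissue, such as genes for matrix proteins, cytokines or receptors, can carry methylation while silent, and more often use a TATA box. Because TET enzymes act on methylated CpGs, the question was how accessibility at this class compared between the genotypes, and how it stood beside CpG-dense promoter regions (ratio of at least 0.6) and CpG-poor regions away from starts.

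Several members held short consensus sequences of transcription factors in the 100 bases just before the start, and examples are shown to make the motifs named below concrete. They were taken from 2071 of the 2128 members that covered a start, with 1 chromosome not used for printed sequence. The splits of ratios below use another window, the 200 bp around each midpoint, so a member shown here need not count there as having the match. Each run is GRCm38 sequence, 5′ to 3′ on the strand of the gene, with the match in capitals and the last base next to the annotated start. The first set shows the 3 members with the most counts among those with a TATA box (TATAAA) that began 40 to 20 bases before the start on the sense strand. They belonged to the water channel gene *Aqp1*, the hair keratin partner *Krtap1-5* and the secreted matrix protein gene *Adamtsl2*.
Aqp1 (chr6:55336332-55336431, plus strand): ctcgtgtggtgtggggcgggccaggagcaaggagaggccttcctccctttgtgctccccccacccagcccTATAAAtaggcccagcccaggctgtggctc
Krtap1-5 (chr11:99581017-99581116, minus strand): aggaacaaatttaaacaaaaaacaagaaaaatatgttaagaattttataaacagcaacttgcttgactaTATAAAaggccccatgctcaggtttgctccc
Adamtsl2 (chr2:27079279-27079378, plus strand): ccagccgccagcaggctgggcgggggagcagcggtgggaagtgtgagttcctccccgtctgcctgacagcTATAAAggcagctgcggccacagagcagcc
The TATA boxes began at positions -30, -31 and -30. The next set shows the 3 members with the most counts among the 142 of these with an AP-1 consensus (TGACTCA or TGAGTCA), the motif of the Fos and Jun factors, in the same window.
Plekhg4 (chr8:105373174-105373273, plus strand): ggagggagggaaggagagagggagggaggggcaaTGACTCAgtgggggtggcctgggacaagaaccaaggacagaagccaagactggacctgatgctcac
Arhgap18 (chr10:26772377-26772476, plus strand): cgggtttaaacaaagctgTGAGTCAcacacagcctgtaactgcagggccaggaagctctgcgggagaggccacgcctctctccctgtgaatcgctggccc
Fgd4 (chr16:16560220-16560319, minus strand): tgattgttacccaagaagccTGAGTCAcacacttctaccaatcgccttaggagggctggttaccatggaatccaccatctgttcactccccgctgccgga
The AP-1 matches lay at -66, -82 and -80. The third set shows the 3 members with the most counts among the 74 of these with a Runt consensus (TGTGGTT on either strand), the motif of RUNX factors such as the osteoblast regulator RUNX2.
Lmna (chr3:88493313-88493412, minus strand): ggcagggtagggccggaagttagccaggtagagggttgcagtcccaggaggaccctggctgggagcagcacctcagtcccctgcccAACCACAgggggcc
Arhgap23 (chr11:97450060-97450159, plus strand): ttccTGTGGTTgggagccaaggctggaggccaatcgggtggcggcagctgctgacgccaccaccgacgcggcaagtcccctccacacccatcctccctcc
AI464131 (chr4:41503077-41503176, minus strand): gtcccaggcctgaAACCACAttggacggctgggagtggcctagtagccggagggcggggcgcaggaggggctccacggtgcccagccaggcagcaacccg
These matches lay at -14, -96 and -87. The last set shows 4 members of bone genes with such a match, chosen after their values were seen.
Panx3 (chr9:37669236-37669335, minus strand): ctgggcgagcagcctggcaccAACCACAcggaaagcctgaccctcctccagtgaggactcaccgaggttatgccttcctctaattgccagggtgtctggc
Postn (chr3:54361009-54361108, plus strand): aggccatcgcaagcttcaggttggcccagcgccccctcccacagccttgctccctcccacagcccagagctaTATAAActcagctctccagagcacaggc
Mmp13 (chr9:7272414-7272513, plus strand): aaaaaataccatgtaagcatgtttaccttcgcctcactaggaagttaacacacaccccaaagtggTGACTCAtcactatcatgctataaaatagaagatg
Bglap2 (chr3:88378700-88378799, minus strand): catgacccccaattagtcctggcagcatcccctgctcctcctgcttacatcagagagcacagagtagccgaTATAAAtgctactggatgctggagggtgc
*Panx3* carried a Runt match at -79, *Mmp13* an AP-1 match at -35, and *Postn* and *Bglap2* TATA boxes at -28 and -29. A match describes the letters of a sequence and is not evidence that a factor binds there.

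As a class, CpG-poor promoter regions were narrow and weakly accessible beside CpG-dense ones. Their median width was 258 bp against 792 bp, and the median member held 126 WT counts and 81 TCKO counts against 801 and 459.5 in CpG-dense promoter regions. Per kilobase the gap was smaller, at 512.2 WT counts against 968.5, so part of the difference in counts was width. Members took 3.17% of all WT counts and 3.00% of all TCKO counts. Their median GC content was 51.5% and they held a median of 3 CpGs, and 637 had none. Counts over both genotypes ran from 24 to 9090 with a median of 209, and no member was at 0 in either genotype.

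Members sat around the start rather than on it. Their midpoints lay a median of 422 bp from the nearest start, 51.0% on the upstream side, and 2128 members (32.6%) covered a start, compared with 79.8% of CpG-dense promoter regions. Of all members, 1507 (23.1%) had a CpG-dense promoter region within 2 kb, so these stood beside a CpG-island type promoter of the same neighbourhood. The members that covered a start were the broader and more open ones, with a median of 278 WT and 164 TCKO counts over 473 bp. Those that did not cover a start held 98 and 64 counts over 205 bp.

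The ratio of each region was the log2 of TCKO over WT counts, with TCKO scaled and 1 added to each. The WT column held 56898657 counts and the TCKO column 34608167, and the latter was scaled to the WT total by a factor of 1.64. Both totals count reads inside regions, so this scaling also takes out any change shared by all regions. The interval given for a region comes from the 95% Wilson interval of its TCKO share of counts. It covers counting error only, because 1 merged column per genotype gives no spread between samples. Without molecular identifiers several reads can stem from 1 molecule, so it can be too narrow even for counting error. Intervals of medians and of shares, here and below, treat regions as independent and cover no difference between samples of a genotype. They are thus not the precision of a difference between genotypes. The median ratio over members was -0.014 (95% interval of the median -0.029 to 0.0022), close to no change under this scaling. It was -0.086 (-0.090 to -0.082) over CpG-dense promoter regions, -0.051 over promoter regions between the classes, 0.118 (0.115 to 0.122) over CpG-poor regions away from starts and 0.064 over all regions. Members thus lay between the other promoters and the distal CpG-poor regions, as the plot of ratios by class shows. These differences of medians were small beside the spread among members, whose 10th and 90th percentiles were -0.66 and 0.80.

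**Figure D1:**
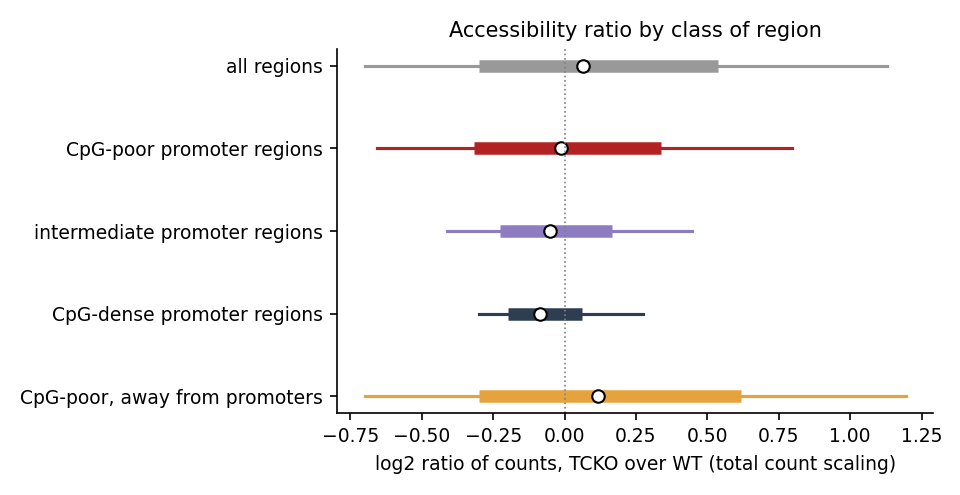
Log2 ratio of ATAC-seq counts (TCKO over WT, total count scaling, horizontal axis) by class of region, with the median as a circle, the quartiles as a thick bar and the 10th to 90th percentiles as a thin line. The median of CpG-poor promoter regions, -0.014, sits between -0.086 for CpG-dense promoter regions and 0.118 for CpG-poor regions away from promoters, and their spread is wider than that of CpG-dense promoters.

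At the cutoff of 2-fold, 221 members (3.39%, 2.97% to 3.85%) were lower in TCKO and 436 (6.68%, 6.10% to 7.31%) were higher. Over all regions the shares were 4.51% and 12.3%, so members passed the cutoff less often than the table as a whole in both directions, where counts were not matched. At like counts the share higher was smaller among members in every bin, but the share lower was not. Members and all regions had 4.78% and 4.60% lower with 51 to 100 counts. With 201 to 500 counts these were 2.21% and 3.79%, and with 501 to 1000 both were 3.51%. CpG-dense promoter regions passed it far less often, with 25 lower (0.201%) and 101 higher (0.810%). At 1.5-fold, 12.2% of members were lower and 15.0% higher, beside 13.2% and 23.3% of all regions, and at 3-fold 0.521% and 1.69%, beside 0.784% and 4.03%. When the whole interval had to lie past the cutoff, 34 members (0.521%) were lower and 116 (1.78%) higher, beside 0.654% and 3.82% of all regions. The direction depended on scaling: with the depth taken from the peak caller's background, 1300 members (19.9%) were lower and 108 (1.66%) higher, beside 19.9% and 3.91% of all regions. With no scaling the shares were 27.2% and 1.35%, beside 25.6% and 3.17%. With the peak caller's depth the factor was 1.08 in place of 1.64 and the members' median was -0.617. A change of the factor moved all classes alike, so the order of the class medians was the same with either factor.

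Ratios were lower where counts were higher, so members were set beside the other classes at like counts. Among regions with 201 to 500 counts, the median of 1858 members was 0.011 (-0.022 to 0.037), against 0.070 (0.051 to 0.082) for CpG-dense promoter regions and 0.085 (0.079 to 0.091) for distal CpG-poor regions. With 501 to 1000 counts the 3 medians were -0.098, -0.007 and -0.008, and with 1001 or more they were -0.174, -0.127 and -0.111. At like counts, then, members had the lowest median of the 3 classes, although over all counts they lay above CpG-dense promoters. The plot of medians at matched counts shows members lowest in each bin from 51 counts up, with intervals that overlap those of CpG-dense promoters below 201 counts. Removing the trend with counts by loess gave medians of -0.068 for members, 0.001 for CpG-dense promoter regions and 0.031 for distal CpG-poor regions. Removing the median of 20 GC bins left members and CpG-dense promoter regions level, at -0.052 and -0.053.

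**Figure D2:**
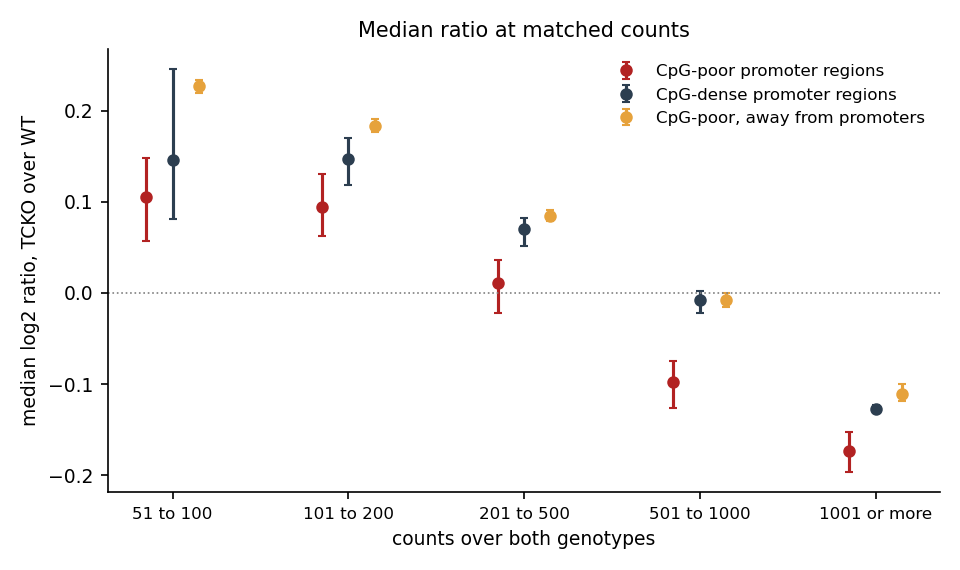
Median log2 ratio (TCKO over WT, vertical axis) in 5 bins of counts summed over both genotypes (horizontal axis), with 95% intervals of the median as bars. In each bin shown the CpG-poor promoter regions have the lowest of the 3 medians, such as -0.098 against -0.007 and -0.008 with 501 to 1000 counts. Their intervals overlap those of CpG-dense promoters in the 2 lowest bins.

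Within the class, the ratio went down as CpG content went up. The 637 members with no CpG had a median of 0.130 (0.075 to 0.180), the 1756 with a CpG ratio of 0.1 to 0.2 had 0.051, and the 824 with 0.35 to 0.4 had -0.089 (-0.121 to -0.060). The share of members at least 2-fold higher in TCKO dropped over the same bins from 14.6% to 9.17% and 2.67%, while the share at least 2-fold lower stayed between 2.12% and 3.88% in all 6 bins. Away from starts the shares higher in the same bins were 23.4%, 13.3% and 8.82%, and over all regions 12.3% were higher and 4.51% lower. With counts held at 201 to 500, the members' shares higher were 4.60%, 6.10% and 1.30%, so the drop was not steady at like counts. Regions away from starts also had lower ratios where CpGs were more frequent, with 0.323 (0.310 to 0.333) where there was no CpG and 0.131 for a ratio of 0.1 to 0.2. With counts held at 201 to 500, members with no CpG had a median of 0.116 and those with 0.35 to 0.4 a median of -0.037. Regions away from starts with such counts went from 0.299 to -0.103, so they lay above members where there was no CpG and below them at 0.35 to 0.4. Just inside the limit of the rule, at 0.38 to 0.4, the median of 334 members was -0.101, and just outside it, at 0.4 to 0.42, that of 324 regions was -0.031.

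**Figure D3:**
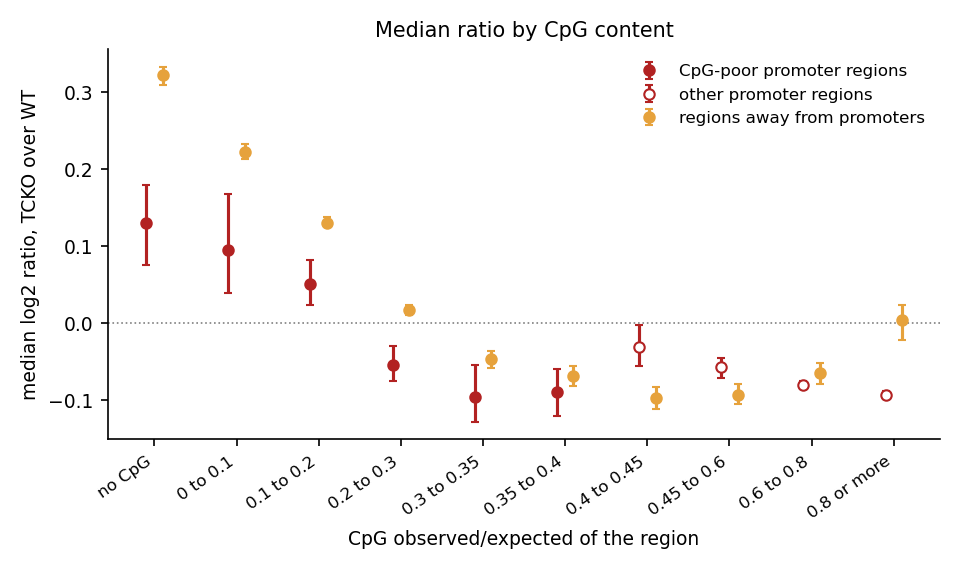
Median log2 ratio (TCKO over WT, vertical axis) by the CpG observed/expected ratio of the region (horizontal axis), for promoter regions (red, filled where they are members) and regions away from promoters (yellow), with 95% intervals of the median as bars. Members go from 0.130 where there is no CpG to -0.089 at 0.35 to 0.4, and regions away from promoters start higher, at 0.323.

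The ratio also went with position. Members that covered a start had a median of -0.100 (-0.121 to -0.079), a value close to that of CpG-dense promoter regions, and those that did not had 0.040 (0.024 to 0.056). Of the start-covering members 3.24% were at least 2-fold higher in TCKO, against 8.35% of the others, whereas 3.10% and 3.53% were at least 2-fold lower. Over all regions 12.3% were higher and 4.51% lower. With the trend with counts removed by loess, 2.30% and 6.21% were higher and 4.37% and 4.23% lower. By distance of the midpoint, the lowest median, -0.076, was that of the 922 members centred 0 to 199 bp downstream of the start, and the highest, 0.028, that of the 1289 centred 501 to 1000 bp upstream. After loess the medians of start-covering and other members were -0.090 and -0.053, so the gap shrank where counts were allowed for. Members on chromosome X did not stand apart, with a median of -0.017 over 190 against -0.013 over 6335 on the autosomes.

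The deposited peak lists, called on the merged samples of each genotype, gave another view. Of the members, 3904 (59.8%) held a summit in both lists, 2141 (32.8%) only in WT and 480 (7.36%) only in TCKO. Over all regions the shares were 56.8%, 33.0% and 10.2%, and among CpG-dense promoter regions 89.8%, 8.46% and 1.73%. Start-covering members were shared by both lists in 81.2% of cases and the rest in 49.5%. The TCKO column held fewer counts inside regions, while the depth from the peak caller's background differed by a factor of 1.08. In the share found only in WT, depth and genotype cannot be told apart.

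Both strands of the 200 bp around each midpoint were searched for consensus sequences, and of the 9 searched the AP-1 consensus gave the widest gap in median ratio between members with and without it. It was present in 924 members (14.2%, 13.3% to 15.0%), against 18.6% of all regions, 1.62% of CpG-dense promoter regions and 20.8% of distal CpG-poor regions. Members with it had a median ratio of 0.304 (0.256 to 0.350) and members without it -0.058. Of members with it, 130 (14.1%) were at least 2-fold higher in TCKO and 6 (0.649%) at least 2-fold lower. For members without it the shares were 5.46% and 3.84%. Over all regions they were 22.2% and 1.30% with it, and 10.01% and 5.25% without, so the split was not confined to members. Among members, the gap in medians was present in each bin of counts. It was 0.605 against 0.045 with 51 to 100 counts, 0.304 against -0.040 with 201 to 500, and -0.060 against -0.189 with 1001 or more. It was also present at each level of CpG content, from 0.578 against 0.056 where there was no CpG to 0.124 against -0.106 at a ratio of 0.35 to 0.4. AP-1 matches were themselves more frequent where CpGs were fewer, in 20.4% of members with no CpG and 7.65% of those at 0.35 to 0.4. Without AP-1 matches the medians by CpG content still went from 0.056 to -0.106.

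The split by AP-1 was much weaker in CpG-dense promoter regions, where medians with and without the match were -0.064 and -0.087. In distal CpG-poor regions they were 0.462 and 0.037. Members covering a start had 0.214 with the match and -0.130 without, and the other members 0.339 and -0.007. The start-proximal AP-1 sequences printed above belonged to highly accessible members with ratios nearer 0. *Plekhg4* held 2943 WT and 1463 TCKO counts, a ratio of -0.29 (-0.38 to -0.20). *Arhgap18* held 2532 and 1441 counts (-0.10, -0.19 to -0.0026), and *Fgd4* 2283 and 1630 counts (0.23, 0.14 to 0.32). These members were shown for having the most counts, and whether a match bears on the direction of a region was not tested.

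The other consensus sequences split members less. The Runt consensus was present in 455 members (6.97%, against 8.72% of all regions), with a median of -0.029 beside -0.013 without it. Among these 455, 27 (5.93%) were at least 2-fold lower and 34 (7.47%) at least 2-fold higher. For members without it the shares were 3.20% and 6.62%. Over all regions they were 5.25% and 11.3% with it, and 4.44% and 12.4% without. The TATA box on either strand was present in 6.45% of members and 8.94% of all regions. Members with it had a median of -0.096 (-0.158 to -0.032) against -0.008. The share at least 2-fold lower was 5.23% with it and 3.26% without, beside 5.20% and 4.45% over all regions. Shares of members and of all regions were 22.9% and 23.3% for the CCAAT box (CCAAT), 13.9% and 16.3% for TEAD (GGAATG), 7.82% and 8.81% for C/EBP (TTGCNNAA), 17.7% and 15.6% for the E-box (CAGCTG), 1.06% and 1.02% for the CArG box, and 0.046% and 0.034% for the NFI palindrome (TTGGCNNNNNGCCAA). Medians with and without a match differed by less than 0.06 for the CCAAT box, TEAD, C/EBP, E-box and CArG box, and the NFI palindrome was found in only 3 members.

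A TATA box in its usual place was rare but more frequent in this class. It was present in 48 of the 2128 start-covering members (2.26%, 1.71% to 2.98%), against 22 of 2290 (0.961%) intermediate and 75 of 9945 (0.754%, 0.602% to 0.944%) CpG-dense promoter regions that covered a start. The 48 members had a median ratio of -0.024 (-0.210 to 0.240) against -0.101 for other start-covering members. Of the 48, 2 were at least 2-fold lower and 3 at least 2-fold higher. Over all start-covering members the shares were 3.10% and 3.24%, and over all regions 4.51% and 12.3%. The members with the sequences shown went separate ways. *Aqp1* had 1326 WT and 392 TCKO counts, a ratio of -1.04 (-1.20 to -0.88). *Krtap1-5* had 812 and 458 counts (-0.11, -0.27 to 0.056), and *Adamtsl2* 582 and 384 (0.12, -0.068 to 0.30).

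The members with the most WT counts belonged to 9 genes of varied function and had ratios near 0. The highest was a region at *Plec*, which encodes the cytoskeletal linker plectin, with 5710 WT and 3380 TCKO counts, a ratio of -0.039 (-0.10 to 0.022). A second *Plec* member had 3397 and 1631 counts (-0.34, -0.43 to -0.26). *Lmna*, the gene of lamin A/C, had 4101 and 2221 counts (-0.17, -0.24 to -0.093). Across all 10, which also included regions at *Myo1h*, *Parp16*, *Zkscan5*, *Arhgap23*, *Gtf3c6*, *Sfxn3* and *Camk2g*, the ratios ran from -0.40 at *Camk2g* (3320 and 1529 counts) to 0.069 at *Parp16* (4292 and 2739 counts). None came near the 2-fold cutoff under total count scaling, and with loess the sign changed for 5 of the 10.

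The 10 lowest ratios among the 3919 members that reached 100 counts in either genotype had no common function. The lowest was at *Epb41l2*, which encodes the membrane skeleton protein 4.1G: 244 WT counts and 15 TCKO counts, or 9.55-fold lower (log2 ratio -3.26, -4.05 to -2.56). This region covered a start, held 7 CpGs and had a summit in the WT list and none in the TCKO list. *Xlr3b*, of a multi-copy X-linked family in which unique mapping is uncertain, had 122 and 12 counts (-2.57). *Mfap3* had 116 and 12 counts (-2.50). *Ddo*, the D-aspartate oxidase gene, was the best covered, with 635 and 108 counts across its start (-1.83, -2.13 to -1.54) and 3.56-fold lower. The others were *Tnfrsf14* (151 and 23 counts), *Sash1* (151 and 24), *Fam186a* (118 and 20), *Pan3* (130 and 23), *5330417H12Rik* (169 and 31) and *Anxa8* (123 and 24), with ratios from -1.97 to -1.62.

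The 10 highest ratios reached 2.26, smaller in size than the lowest ratio of -3.26. Of these 10 regions, 8 did not cover a start, and of all members only 32.6% covered one. *Tmem200a* had 45 WT and 133 TCKO counts, 4.78-fold higher (2.26, 1.80 to 2.77), in a region centred at -918 bp from the start. *Mx1*, an interferon-induced GTPase, had 41 and 116 counts (2.19), and *Vsig2* 68 and 185 counts (2.14). *Ccr1*, a chemokine receptor of myeloid cells, had 102 and 209 counts across its start (1.74, 1.41 to 2.09). The others were *Zgpat*, *Ttc7b*, *Pabpn1l*, *Tex15*, *Chn1* and *Lhfpl2*, with 63 to 105 WT counts, 153 to 226 TCKO counts and ratios from 1.76 to 1.98. The AP-1 consensus was present in 5 of these 10 members, at *Mx1*, *Zgpat*, *Pabpn1l*, *Tex15* and *Chn1*, and in none of the 10 lowest. Of all members, 14.2% held it. Both sets of 10 were picked by their ratios, so these counts add nothing to the AP-1 split above.

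Bone genes were the largest group of osteoblast function with members: 18 of 36 listed genes had 26 members between them. Their median ratio was -0.164 (-0.484 to 0.094), beside -0.014 for all members. The interval lay wholly below 0 for 13 and wholly above 0 for 6, beside 22.8% of all members on each side and 18.9% and 29.5% of all regions. Of the 26, 2 were at least 2-fold lower and none at least 2-fold higher. Over all members these shares were 3.39% and 6.68%, and over all regions 4.51% and 12.3%. Among secreted matrix genes, *Ibsp*, which encodes bone sialoprotein, had 111 WT and 28 TCKO counts at its start (-1.25, -1.86 to -0.68), while another *Ibsp* member 849 bp downstream had 39 and 44 counts (0.88, 0.27 to 1.51). *Omd*, encoding the proteoglycan osteomodulin, had 1133 and 433 counts (-0.67, -0.83 to -0.51), and *Postn*, encoding periostin, 302 and 108 (-0.76, -1.08 to -0.45). Not all matrix genes were lower: the start of *Spp1*, which encodes osteopontin, had 199 and 205 counts (0.76, 0.48 to 1.04), and that of *Sparc*, encoding osteonectin, 1067 and 754 counts (0.22, 0.082 to 0.35).

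Among membrane and signalling genes of the same list, *Panx3*, a channel protein of skeletal cells, had 929 WT and 266 TCKO counts (-1.09, -1.28 to -0.89). The growth factor gene *Clec11a* had 1030 and 339 counts (-0.88, -1.06 to -0.71), and *Tnfrsf11b*, encoding the decoy receptor osteoprotegerin, 804 and 575 (0.23, 0.079 to 0.39). Of the mineralization genes, *Alpl* had 230 and 98 counts (-0.51) and *Dmp1* 473 and 232 (-0.31). The starts of transcription factor genes had ratios nearer 0. The *Runx2* member that covered a start and held a Runt match had 1019 and 552 counts (-0.17, -0.32 to -0.018), and *Sp7*, encoding osterix, 290 and 163 (-0.11, -0.39 to 0.16). The osteocalcin genes *Bglap* (93 and 51 counts) and *Bglap2* (106 and 82 counts), near-identical copies whose reads could be split or lost by unique mapping, had ratios of -0.15 and 0.34, each with an interval that held 0.

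**Figure D4:**
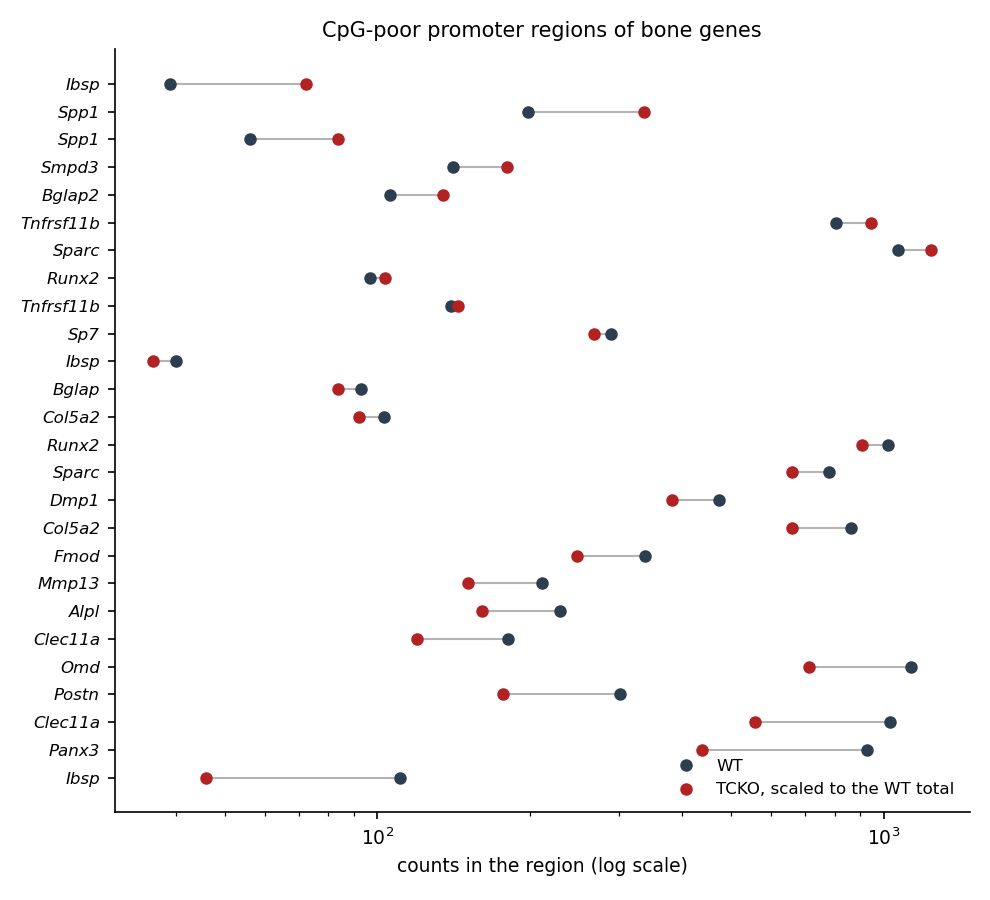
Counts (log scale, horizontal axis) of the 26 CpG-poor promoter regions of bone matrix and osteoblast genes in WT (dark) and in TCKO after scaling to the WT total (red), 1 line per region, ordered by ratio with the lowest at the bottom. *Ibsp*, *Panx3*, *Clec11a*, *Postn* and *Omd* have the widest gaps towards lower TCKO counts, and *Spp1* and the downstream *Ibsp* region lie the other way.

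Small proteoglycan and matrix genes of connective tissue had lower medians as well, with 19 members of 15 genes, a median of -0.209 (-0.439 to -0.096), 9 intervals wholly below 0 and 1 above, against the same 22.8% of members on each side. Both members of *Prelp*, encoding a leucine-rich proteoglycan that anchors basement membranes, were past the cutoff, with 578 and 150 counts (-1.23) and 104 and 23 counts (-1.44). *Lum*, encoding lumican, had 469 and 176 counts (-0.69), *Ccn5* 909 and 342 (-0.69) and *Mgp*, encoding the calcification inhibitor matrix Gla protein, 904 and 425 (-0.37). *Col3a1*, a fibrillar collagen gene, was the exception above 0, with 340 and 250 counts (0.27, 0.038 to 0.51). Chondrocyte genes had 11 members with a median of -0.224, of which 5 had intervals below 0 and none above. After loess the medians of the bone, proteoglycan and chondrocyte lists were -0.304, -0.178 and -0.345, beside -0.068 for all members.

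Matrix proteases and their inhibitors did not lean to a side, with a median of 0.024 over 21 members and 5 intervals on each side of 0. The 2 members of *Ctsk*, the collagenase of osteoclasts, had 650 and 165 counts (-1.26, -1.51 to -1.01) and 729 and 295 counts (-0.59, -0.78 to -0.39). *Mmp10* had 30 and 79 counts (2.08, 1.51 to 2.72) and held an AP-1 match in the window. *Mmp13*, the collagenase gene counted in the bone list, also held an AP-1 match but had 212 and 92 counts (-0.48, -0.84 to -0.13). *Timp1*, a protease inhibitor gene, had 1936 and 1144 counts (-0.042). Smooth muscle and cytoskeletal genes had 20 members with a median of -0.042, and adipocyte genes 14 members with a median of -0.034.

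Genes of chemokines, cytokines and their receptors had 27 members with a median of 0.441 (0.020 to 0.798), 14 intervals above 0 and 5 below, where 22.8% of all members lay on each side. With the peak caller's depth the median was -0.161, beside -0.617 for all members, so its sign depended on scaling. The strongly accessible starts were the exceptions: *Il6* had 1277 and 598 counts (-0.38, -0.52 to -0.24), *Ccl2* 784 and 370 (-0.37) and *Ccl7* 675 and 244 (-0.75). Higher values were found at *Il1rn*, encoding an interleukin-1 antagonist, with 184 and 239 counts (1.09, 0.82 to 1.37), and at 1 of the start regions of *Il1rl1*, the interleukin-33 receptor gene, with 291 and 331 counts (0.90, 0.68 to 1.13). At 201 to 500 counts the 6 members of this list had a median of 0.601, beside 0.011 for all members. After loess the median was 0.299.

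Markers of other cell types were examined among the members. Macrophage and osteoclast markers had 11 members at 9 of 30 genes, with a median of 0.430, 7 intervals above 0 and none below (22.8% of all members on each side), and summed counts of 1571 in WT and 1309 in TCKO. With the peak caller's depth this median was -0.174, so its sign depended on scaling as well. The osteoclast gene *Atp6v0d2* had 290 and 284 counts at its start (0.69, 0.45 to 0.92), and *Laptm5* 192 and 197 (0.75, 0.47 to 1.04). *Lyz2*, a lysozyme gene of macrophages, had 333 and 183 counts (-0.15, -0.41 to 0.11), and the other 21 genes had no member. Of these 11 members, 5 held an AP-1 match. *Ctsk*, counted with the proteases above, was not in this list. The authors cite it as a marker of periosteal stem cells, and which cells its counts came from was not tested. Both *Ctsk* members had intervals wholly below 0, so the absence of such intervals here depends on the genes listed. Endothelial markers had a median of 0.004 over 11 members (summed counts 1869 and 1066), skeletal muscle markers 0.313 over 13 (1673 and 1153) and other blood cell markers -0.123 over 7 (1650 and 765). Under total count scaling the higher macrophage values stood beside the higher chemokine, *Ccr1* and *Mx1* values, and their part in those results was not tested.

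Among lists with at least 6 members, keratin-associated protein, vomeronasal receptor and olfactory receptor genes had the highest medians under total count scaling. Olfactory receptor genes had 96 members at 84 of 1133 genes, with a median of 0.565 (0.190 to 0.836). Of these, 32 were at least 2-fold higher and 2 at least 2-fold lower. Over all members the shares were 6.68% and 3.39%, and over all regions 12.3% and 4.51%. Most olfactory members were barely open, with a median of 41 WT and 38 TCKO counts, and they held few counts in any single region. At 101 to 200 counts the 24 olfactory members had a median of 0.471 against 0.095 for all members, so their median was higher at matched counts too. Vomeronasal receptor genes had a median of 0.598 over 13 members and keratin-associated protein genes 0.604 (-0.217 to 0.950) over 16. Under the peak caller scaling the 3 medians became -0.035, -0.011 and -0.002, so their sign depended on scaling, while their place above other members, at -0.617, did not.

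**Figure D5:**
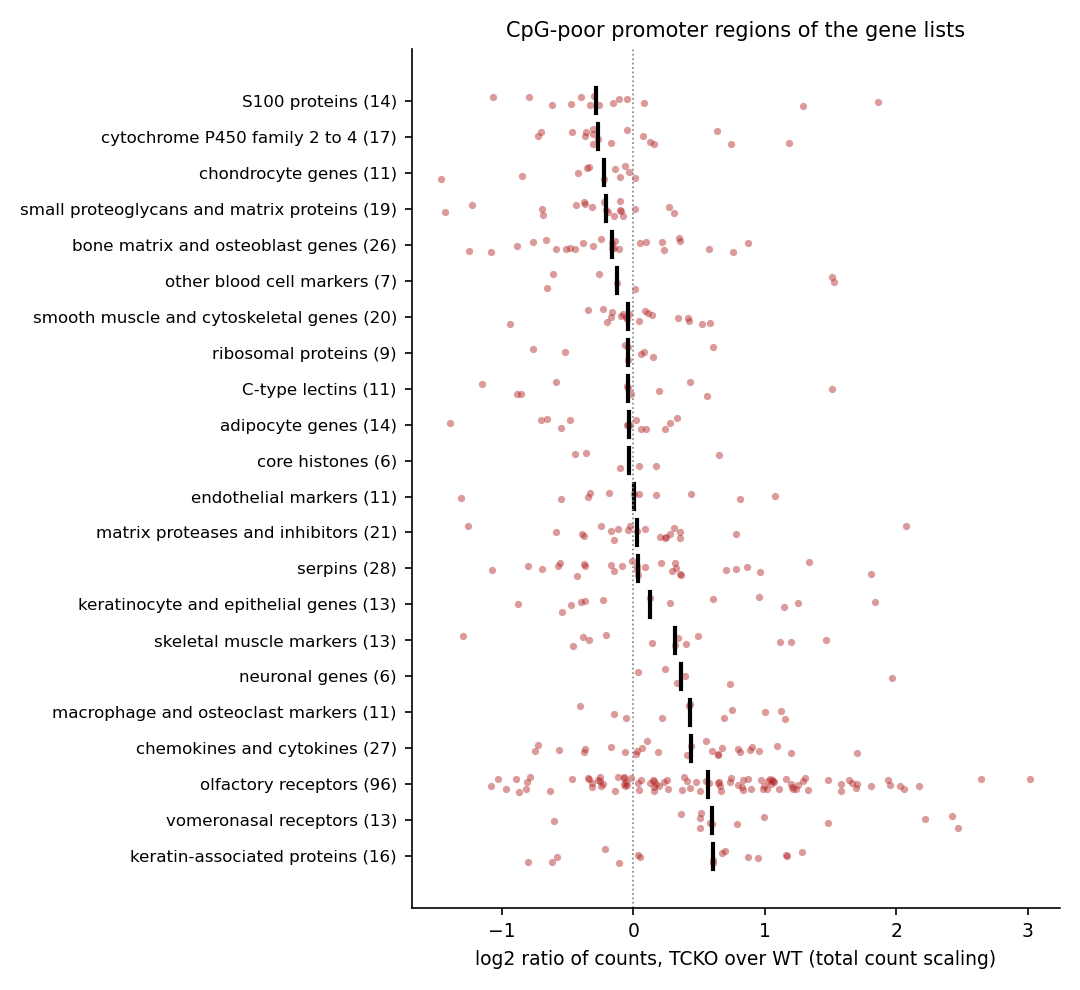
Log2 ratio (TCKO over WT, total count scaling, horizontal axis) of each CpG-poor promoter region in the gene lists with at least 6 members, 1 point per region scattered vertically within its list, with the median of each list as a black bar and the number of regions in brackets. Medians run from -0.285 for S100 proteins to 0.604 for keratin-associated proteins, and points of nearly all lists spread on both sides of 0.

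Many genes had both kinds of promoter region, which allowed a comparison within the gene. For 2245 genes (44.7% of those with a member), member counts and counts of CpG-dense promoter regions were each summed, and the median difference of the ratios, member less dense, was 0.046 (0.026 to 0.066). The ratio was lower at the member in 1018 genes (45.3%). Counts were not matched in this comparison. As a class, CpG-dense promoter regions held more counts, and at like counts their median lay above that of members. The difference was at least 2-fold downward in 58 genes and at least 2-fold upward in 109. The examples that follow were chosen after their values were seen. *Runx3*, a RUNX family gene, had 1621 WT and 346 TCKO counts in its member (-1.51, -1.68 to -1.34) and 111 and 69 counts in its CpG-dense regions (0.031, -0.40 to 0.46). *Gdpd5* had 302 and 60 counts in its member (-1.60) and 2796 and 1758 in its CpG-dense regions (0.048). In the other direction, *Patz1* had 214 and 311 counts (1.25, 1.01 to 1.51) against 1748 and 1136 (0.095).

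*Prrx1* was a special case, since it is the gene from which the Prx1-Cre driver takes its name and regulatory sequence. Its member had 953 WT and 851 TCKO counts (0.55, 0.42 to 0.69) and its CpG-dense region 160 and 384 counts (1.97, 1.71 to 2.25). Reads from a driver copy carried by TCKO cells alone and reads from the native gene cannot be told apart in these counts.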

How the data were processed

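ATAC-seq was run on osteoblasts of 2 genotypes. The authors aligned reads end to end to GRCm38 with STAR 2.7.0e, kept uniquely mapping reads and merged the samples of each genotype. CASAVA and MACS2 are also named in the submitters' processing notes, without a version there. The methods name a Tn5 transposase kit, whereas the protocol text in the labels describes a directional RNA library kit. The removal of duplicates is not given in the sources used here. The deposited count table holds whole read counts per region, made with bedtools multicov, in 1 merged column per genotype. The deposited MACS2 peak lists hold, for each summit of the merged reads, a score, the fold enrichment over the local background, the −log10 of the p-value and of the q-value, and the summit offset, given here under other units. Columns of other samples numbered 0.

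Regions were annotated with GENCODE M21 starts and the RefSeq sequence of GRCm38.p6. The members, gene lists and tests were chosen with earlier results of these data known. Log2 ratios used a pseudocount of 1 and total count scaling. With merged columns there was no test, the total counts per genotype set the precision, and Wilson intervals at the 95% level cover counting error only. The members named were the 10 lowest and 10 highest ratios among members with 100 counts or more in either genotype, the 10 with the most WT counts, and members of the gene lists, in general those with more counts. Members named outside these rules are said to be so where they appear, and some list members were picked as examples after their values were seen. Because only unique reads were counted, values of near-identical gene copies, such as receptor, keratin-associated protein and osteocalcin genes, are uncertain. Alternatives were other scalings (edgeR TMM and DESeq2 size factors, the depth recovered from the peak caller's background, loess of the ratio on mean count with a span of 0.3, and 20 GC bins), a minimum of 50 counts, a pseudocount of 10, other limits of the class and other folds. The ratio and interval steps were tested on simulated counts. Python 3.11.15, numpy 2.4.6, pandas 2.3.3, scipy 1.17.1, statsmodels 0.14.6, matplotlib 3.10.9, R 4.3.3, edgeR 4.0.16 and DESeq2 1.42.0 were used.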

Additional observations from a re-analysis of the deposited data

How the results depend on the processing

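No paired analysis was possible because the deposited table holds 1 merged column per genotype. For the same reason edgeR's quasi-likelihood test, the DESeq2 test and leaving out each replicate were not run. The share of members past the cutoff, 3.39% lower and 6.68% higher, depended most on the depth factor: it was 19.9% and 1.66% with the peak caller background, and 27.2% and 1.35% with no scaling. It was 12.2% and 15.0% at 1.5-fold, 0.521% and 1.69% at 3-fold, and 0.521% and 1.78% where the whole interval had to be past 2-fold, and the share higher was 3.24% over start-covering members. The median ratio of members, -0.014, became -0.089 with TMM, -0.078 with DESeq2 size factors, -0.617 with the peak caller background, -0.068 with loess, -0.052 with GC bins and -0.724 with no scaling. It was 0.024 for a CpG ratio below 0.3, -0.060 within 200 bp of a start, 0.011 with starts of every transcript of protein-coding genes, -0.100 over start-covering members and -0.058 without AP-1 matches. No scaling, every transcript, start-covering members and members without AP-1 matches were chosen after seeing the data.

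Relative to all regions the members' median was -0.078, and it was -0.052 with GC bins, -0.040 below 0.3, -0.124 within 200 bp, -0.053 with every transcript, -0.164 over start-covering members and -0.055 without AP-1 matches. Relative to CpG-dense promoter regions it was 0.073 and changed sign with loess, to -0.069, and over start-covering members, to -0.013. It was 0.0015 with GC bins, 0.111 below 0.3, 0.042 within 200 bp, 0.096 with every transcript and 0.029 without AP-1 matches. The construction of loess, which removes the trend with counts, bears on this, since members had fewer counts. Relative to CpG-poor regions away from promoters it was -0.131 and stayed below 0 in every alternative run, at -0.099 with loess, -0.083 with GC bins, -0.177 within 200 bp, -0.108 with every transcript, -0.217 over start-covering members and -0.095 without AP-1 matches. With peaks of −log10 q of at least 5, 37.5% of members had a summit in both lists, 21.2% in WT and 3.34% in TCKO alone. Over the whole region in place of 200 bp, matches were found in 10.9% for the TATA box, 11.6% for Runt, 21.9% for TEAD, 13.1% for C/EBP, 26.9% for the E-box and 1.84% for the CArG box. Of the 20 members named for the lowest or highest ratio, 0 changed sign under the 6 other scalings. Of the 10 with the most WT counts, all 10 left their interval with loess and 5 changed sign, and *Parp16* changed sign with TMM, the peak caller background and no scaling.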

Other observations

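Other gene families with CpG-poor promoter regions gave mixed values. S100 genes, which encode small calcium-binding proteins, had 14 members at 11 genes with a median of -0.285, 7 intervals wholly below 0 and 2 above, beside 22.8% of all members on each side. *S100a16* had 692 WT and 242 TCKO counts (-0.80, -1.01 to -0.59) and *S100b* 462 and 183 (-0.62), while *S100a2* had 119 and 178 (1.29) and *S100a7a* 35 and 79 (1.86). Serpin genes, most of which encode protease inhibitors, had 28 members with a median of 0.032 and 8 intervals on each side of 0, against the same shares. *Serpina6*, which encodes a corticosteroid carrier, had 522 and 579 counts at its start (0.87, 0.70 to 1.04) with an AP-1 match, and *Serpinb1a* 289 and 83 (-1.08, -1.43 to -0.73). Cytochrome P450 genes had 17 members with a median of -0.269, and C-type lectin genes 11 with a median of -0.038, among which *Clec2h* had 209 and 364 counts (1.51, 1.27 to 1.76).

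Keratinocyte and epithelial genes had 13 members with a median of 0.129, neuronal genes 6 with 0.362, ribosomal protein genes 9 with -0.040 and core histone genes 6 with -0.030. Liver secreted genes (median 0.199), taste receptors (0.364), defensins (1.08) and interferons (0.318, a name pattern that also took *Ifnar1*) had 3 members each. Beside *Runx2* and *Runx3*, *Runx1* had a pair of members that differed, 1 with 163 and 50 counts (-0.98) and the other with 291 and 256 (0.53), chosen after their values were seen.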
